A study of Komagataella pastoris with 15 samples.

Results

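The genes described here are 6 of the 5039 locus tags measured on an expression array of Pichia pastoris, a methylotrophic yeast that the labels call Komagataella pastoris. They are 4 genes assigned to the cycle that rearranges sugar phosphates during growth on methanol, namely FBA1-2 (PAS_chr1-1_0319), TAL1-2 (PAS_chr2-2_0338), SHB17 (PAS_chr2-2_0177) and FBP1 (PAS_chr3_0868), and 2 paralogs, FBA1-1 (PAS_chr1-1_0072) and TAL1-1 (PAS_chr2-2_0337). They were chosen by their place in the pathway, with earlier results of these data known. The deposited files hold locus tags alone, so the pairing of tags with gene names was taken from the list of chosen genes and was not tested here.

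The cultures were grown in 3 fermentors of 40 L and made recombinant human serum albumin (rhHSA), so no phase lacks the producing strain. RNA of the whole culture was taken from each fermentor in 5 phases. They were logarithmic growth, the close of the glycerol feed (cells starved of carbon for 40 min while the methanol feed was starting), methanol adaptation (methanol was then the only carbon source), the time given as the peak of rhHSA production rate, and the end of fermentation, when rhHSA had dropped to 220 mg/L. Genotype and promoter are not stated in the labels, and the protocol's sampling times are not tied to phases, so none are used.

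In methylotrophic yeasts, methanol is oxidised to formaldehyde in the peroxisome, and formaldehyde is fixed onto xylulose phosphate, giving dihydroxyacetone and glyceraldehyde phosphate. The acceptor must be regenerated, and in Pichia pastoris the enzymes that do so include second copies of an aldolase and a transaldolase, whose first copies belong to cytosolic glycolysis and the pentose phosphate pathway. A sedoheptulose bisphosphatase and a fructose bisphosphatase make the rearrangement irreversible. The fructose bisphosphatase also serves gluconeogenesis.

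Each of the 15 arrays carried 3 spots per tag, and between 98.7% and 99.96% of the tags were well above background on each array. The arrays came from 2 scans. All fermentation-end arrays and each earlier phase's array 1 were read in scan 1, and the remaining 8 arrays in scan 2. The scan difference varied with a standard deviation of 0.73 log2 units over the 5024 tags tested, so the values below come from a fit with scan as a block unless another setting is named. In logarithmic growth, array 2 and array 3 were closer to each other than their spot noise (1.94% of tags beyond it), so they entered as 1 sample (n = 2 in that phase). Arrays 2 and 3 at the end of glycerol feeding (7.67%) and the 3 end of fermentation arrays (6.7% to 8.85%) exceeded the 5% limit and entered separately. At methanol adaptation and the labelled rhHSA peak the same pair lay at 55.6% and 51.4%. The alternative named near-identical arrays averaged joined the glycerol-end pair, and the end of fermentation arrays, to 1 sample each. Whether such arrays are independent samples was not tested. Each of the 3 arrays labelled rhHSA peak correlated best, among the other phases' arrays of its own scan, with a logarithmic growth array (r from 0.968 to 0.977 across tags, against at most 0.923 with methanol adaptation). Whether they hold the labelled phase was not tested, and in a fit without them FBA1-2 and TAL1-2 still rose at methanol adaptation by 2.45 and 2.06 log2 units over logarithmic growth (adjusted p = 2.96e-08 and 4.31e-07) and SHB17 still rose at the end of fermentation by 0.92 over methanol adaptation (adjusted p = 8.42e-05). The number of arrays limits the precision. Since equal amounts of RNA were labelled, fewer cells carrying a transcript and less of it per cell cannot be told apart.

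FBA1-2 and TAL1-2 changed the most among the 6 genes. Between the lowest and the highest phase, FBA1-2 spanned 19.6-fold and TAL1-2 spanned 14.9-fold, the rank 20 and rank 39 spans of 5024 tags, where the median tag spanned 2.36-fold. SHB17 spanned 1.94-fold. FBP1, FBA1-1 and TAL1-1 each spanned 1.73-fold, and all 4 of these were below the median tag. In the moderated F test over the phases, 95.0% of all tags passed, and so did all 6 genes, which is close to that background. FBA1-2 and TAL1-2 also passed in every alternative (28 of 28 each). With no scan block SHB17 (adjusted p = 0.41) and FBP1 (adjusted p = 0.856) did not pass, nor did they with fermentor as a block in place of scan (adjusted p = 0.0596 and 0.658). With quantile normalization FBA1-1 (adjusted p = 0.303) and TAL1-1 (adjusted p = 0.0546) did not pass, likewise in the authors' values with a scan block (adjusted p = 0.697 and 0.065). FBP1, FBA1-1 and TAL1-1 were also lost with all near-identical arrays averaged (adjusted p = 0.089, 0.113 and 0.127). Of the 4 genes assigned to the methanol cycle, only FBA1-2 and TAL1-2 rose between logarithmic growth and methanol adaptation in the fit with scan as a block.

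**Figure D1:**
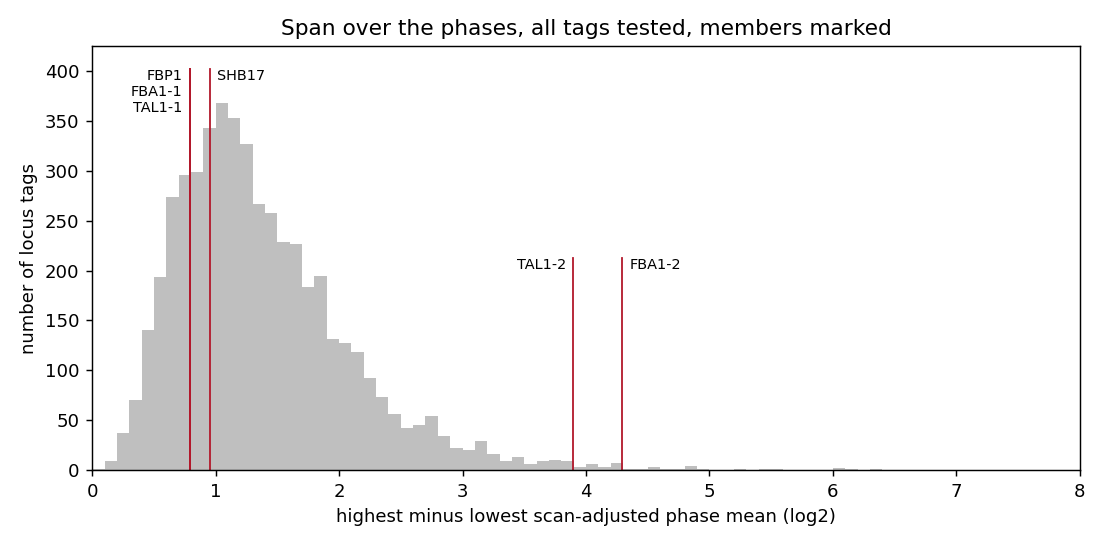
Histogram of the span over the 5 phases (highest minus lowest scan-adjusted phase mean, log2) for the 5024 tags tested, with red lines at the 6 genes. FBA1-2 (4.29) and TAL1-2 (3.90) lie in the upper tail, and SHB17 (0.95), FBP1, FBA1-1 and TAL1-1 (0.79 each) lie below the median of 1.24.

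FBA1-2 encodes the aldolase copy assigned to the cycle, which joins dihydroxyacetone phosphate to aldehyde sugars. Its relative signal, the spot signal divided by the 75th percentile of its array, was 0.234, 0.213 and 0.196 on arrays 1 to 3 of logarithmic growth and 0.648, 0.610 and 0.595 at the end of glycerol feeding. It was 1.28, 1.02 and 1.24 at methanol adaptation. On the arrays labelled rhHSA peak it was 0.281, 0.227 and 0.271, close to logarithmic growth, and at the end of fermentation it was 4.71, 4.49 and 4.40. The 3 arrays of a phase lay close together in every phase, and only the logarithmic growth and labelled-peak arrays overlapped. The scan difference of FBA1-2 was small, 1.12-fold.

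FBA1-2 was 2.88-fold higher at the end of glycerol feeding than in logarithmic growth, a log2 change of 1.53 ± 0.094 (SE; limma adjusted p = 1.58e-07). The second step, into methanol growth, added a further 1.91-fold (log2 0.93 ± 0.084, SE; limma adjusted p = 4.79e-06). Methanol-adapted cells thus had 5.48-fold more FBA1-2 transcript than logarithmic growth (log2 2.46 ± 0.094, SE; limma adjusted p = 2.71e-09), with a change of 2.46 on scan 1 and 2.46 on scan 2. At the end of fermentation the level was 3.57-fold above methanol adaptation (log2 1.83 ± 0.094, SE; limma adjusted p = 2.45e-08). On the labelled-peak arrays it was 4.54-fold lower than at methanol adaptation (log2 -2.18 ± 0.084, SE; limma adjusted p = 2.61e-09), and the end of fermentation stood 16.2-fold above them (log2 4.02 ± 0.094, SE; limma adjusted p = 1.23e-10). From high to low the order was end of fermentation, methanol adaptation, end of glycerol feeding, labelled peak and logarithmic growth. The last neighbours differed by 1.21-fold (limma adjusted p = 0.0332), a call that was lost without logarithmic growth array 1 (adjusted p = 0.0989) or 3 (adjusted p = 0.054), without labelled-peak array 1 (adjusted p = 0.0897) or 3 (adjusted p = 0.0848), on scan 2 alone (adjusted p = 0.335), with no scan block (adjusted p = 0.276) and with all near-identical arrays averaged (adjusted p = 0.097).

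TAL1-2 encodes the transaldolase copy assigned to the cycle, an enzyme that moves a dihydroxyacetone unit between sugar phosphates. In relative signal it had 0.0967, 0.195 and 0.194 on arrays 1 to 3 of logarithmic growth and 0.572, 1.18 and 1.19 at the end of glycerol feeding. Methanol adaptation had 0.411, 0.950 and 0.684. The labelled-peak arrays had 0.115, 0.276 and 0.230, and the end of fermentation had 1.44, 1.38 and 1.46. Array 1 of each of the first 4 phases, on scan 1, was the lowest of its phase, and over the phases scan 1 gave 0.485 times the signal of scan 2. The end of fermentation was on scan 1 only, where its nearest phase, the end of glycerol feeding, had 0.572.

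TAL1-2 stood at 6.01-fold the level of logarithmic growth at the end of glycerol feeding (log2 2.59 ± 0.12, SE; limma adjusted p = 2.71e-08). At methanol adaptation it was 1.44-fold below the end of glycerol feeding (log2 -0.53 ± 0.11, SE, limma adjusted p = 0.00168). The arrays of both phases overlapped across scans but not within a scan, where the log2 changes were -0.48 (scan 1) and -0.56 (scan 2). The call was lost on scan 2 alone (adjusted p = 0.0824), with no block (adjusted p = 0.414) and with fermentor as a block in place of scan (adjusted p = 0.072). Against logarithmic growth, methanol-adapted cells were 4.16-fold higher (log2 2.06 ± 0.12, SE; limma adjusted p = 6.14e-08). TAL1-2 at the end of fermentation was 3.58-fold above methanol adaptation (log2 1.84 ± 0.12, SE; limma adjusted p = 1.77e-07), a value of 1.15 with no scan block. It was also 2.48-fold above the end of glycerol feeding (limma adjusted p = 2.79e-06), which was not called with no scan block (log2 0.62, adjusted p = 0.244). On scan 1 alone these 2 log2 changes were 1.79 and 1.32. The labelled-peak arrays were 3.32-fold lower than methanol adaptation (log2 -1.73 ± 0.11, SE; limma adjusted p = 9.46e-08), and the end of fermentation was 11.9-fold above them (log2 3.57 ± 0.12, SE; limma adjusted p = 1.11e-09). The order from high to low was end of fermentation, end of glycerol feeding, methanol adaptation, labelled peak and logarithmic growth, and the last neighbours differed by 1.25-fold with a limma adjusted p of 0.0467 that passed in 13 of 29 alternatives, being 0.126 without logarithmic growth array 1 and 0.124 without labelled-peak array 2.

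**Figure D2:**
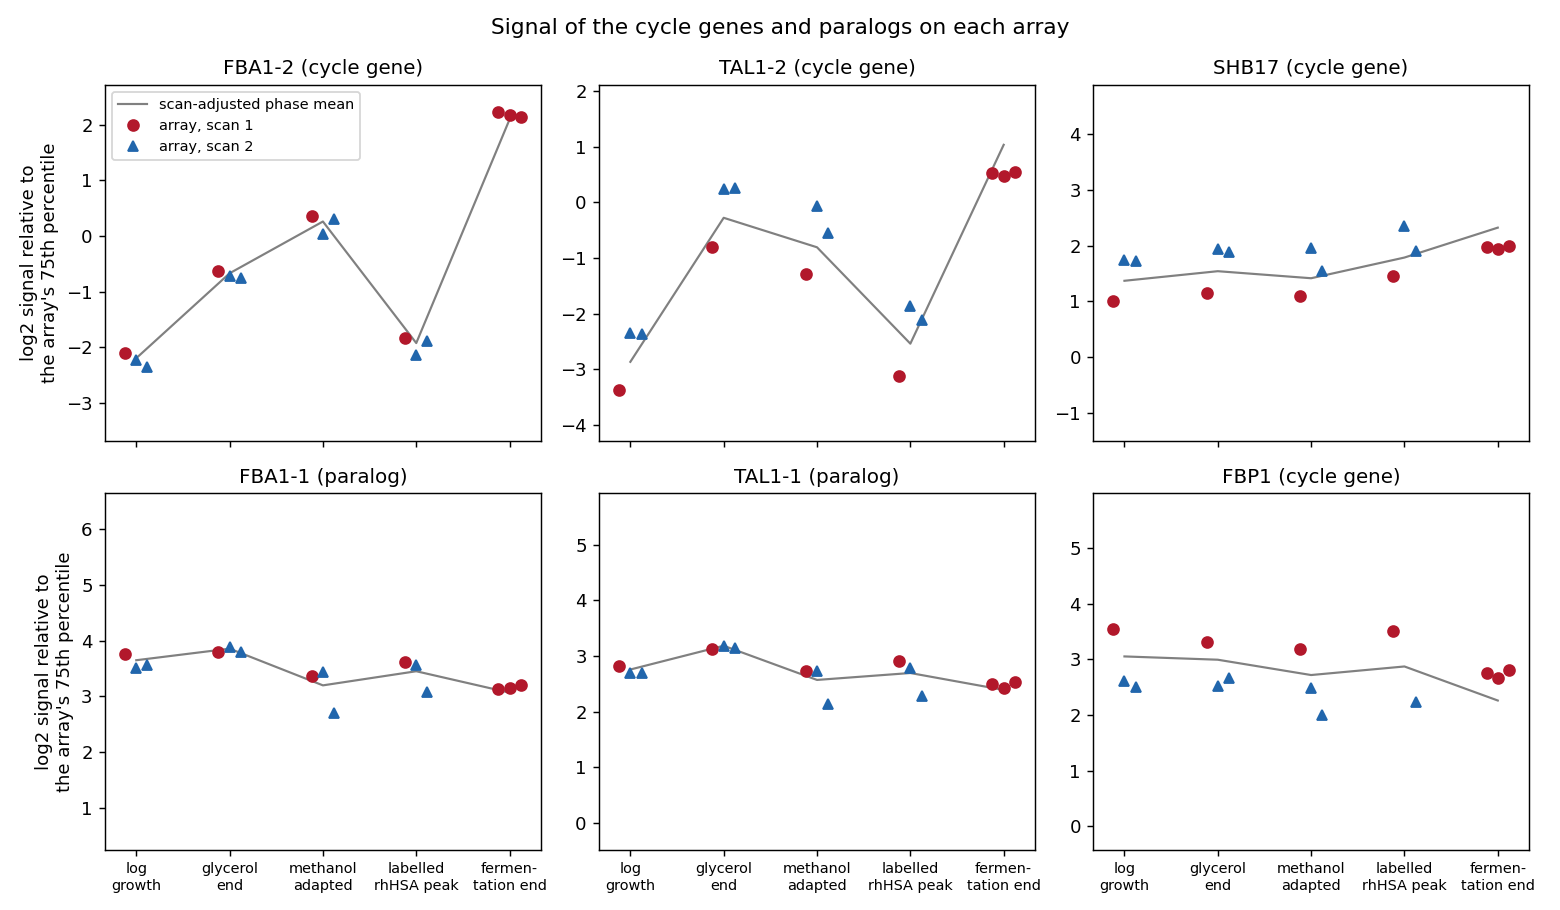
Each panel plots 1 gene, with the log2 signal relative to the array's 75th percentile against the 5 phases in fermentation order. Points are single arrays (circles scan 1, triangles scan 2), the grey line joins the scan-adjusted phase means, and all panels have axes of equal length. FBA1-2 and TAL1-2 climb at the end of glycerol feeding and are highest at the end of fermentation, and the labelled-peak arrays lie near logarithmic growth.

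SHB17, the sedoheptulose bisphosphatase, had relative signals of 2.00, 3.34 and 3.31 on arrays 1 to 3 of logarithmic growth, 2.21, 3.85 and 3.68 at the end of glycerol feeding, and 2.13, 3.89 and 2.90 at methanol adaptation. The labelled-peak arrays gave 2.73, 5.09 and 3.75, and the end of fermentation gave 3.94, 3.81 and 4.00. On scan 1 alone, every end of fermentation array was above the single array of each earlier phase, whereas the scan 2 arrays of those phases reached or passed 2.90. Scan 1 gave 0.613 times the signal of scan 2.

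Neither at the end of glycerol feeding (1.13-fold, limma adjusted p = 0.277) nor at methanol adaptation (1.03-fold, limma adjusted p = 0.77) was SHB17 called against logarithmic growth. The 95% interval of its change at methanol adaptation ran from 0.84-fold to 1.27-fold, below the intervals of FBA1-2 and TAL1-2. With quantile normalization SHB17 was called at methanol adaptation, at a log2 change of 0.20 (adjusted p = 0.0406), and likewise in the authors' values with a scan block (log2 0.19, adjusted p = 0.0274). At the end of fermentation it was 1.88-fold higher than at methanol adaptation (log2 0.91 ± 0.13, SE; limma adjusted p = 9.99e-05), and 0.87 log2 units higher on scan 1 alone. With no scan block this log2 change was 0.44 (adjusted p = 0.251). Against the labelled-peak arrays the end of fermentation was 1.45-fold higher (limma adjusted p = 0.00366), which with no scan block was a log2 change of 0.067 (adjusted p = 0.867) and with fermentor as a block in place of scan had an adjusted p of 0.737. The labelled-peak arrays were 1.29-fold above methanol adaptation (limma adjusted p = 0.0154), a call that was lost without methanol adaptation array 3 (adjusted p = 0.0633), labelled-peak array 1 (adjusted p = 0.0502) or labelled-peak array 2 (adjusted p = 0.0689). From high to low the order was end of fermentation, labelled peak, end of glycerol feeding, methanol adaptation and logarithmic growth, and among neighbours only the end of fermentation and the labelled peak passed the threshold. Their arrays overlapped across scans, and this call was also lost with all near-identical arrays averaged (adjusted p = 0.0624).

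FBP1, the fructose bisphosphatase, was the single gene of the 4 with its lowest scan-adjusted level at the end of fermentation. Its relative signal was 11.7, 6.07 and 5.66 in logarithmic growth, 9.94, 5.74 and 6.30 at the end of glycerol feeding, and 9.1, 5.57 and 4 at methanol adaptation. The labelled-peak arrays 1 and 3 had 11.4 and 4.69, since all 3 spots of array 2 were outlier-flagged and left out, so n = 2 there. The end of fermentation had 6.73, 6.34 and 7. Scan 1 gave 1.95 times the signal of scan 2 for this gene, and the end of fermentation arrays lie below the scan 1 array of every other phase and above all scan 2 arrays.

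In methanol-adapted cells FBP1 had a log2 change of -0.33 ± 0.15 (SE) against logarithmic growth, which was not called (limma adjusted p = 0.0652). The call was gained in 8 of 28 alternatives, among them all arrays entered separately (adjusted p = 0.0336) and, with the same arrays, fermentor and scan both as blocks (adjusted p = 0.045). FBP1 at the end of fermentation was 1.37-fold lower than at methanol adaptation (log2 -0.46 ± 0.15, SE; limma adjusted p = 0.0194), with -0.44 on scan 1 alone. That call depended on the fit: it was lost with fermentor and scan both as blocks (adjusted p = 0.0797), without methanol adaptation array 1 (adjusted p = 0.0728) and without end of fermentation array 2 (adjusted p = 0.0558), and the value was 0.19 with no block or with fermentor in place of scan. From high to low the order was logarithmic growth, end of glycerol feeding, labelled peak, methanol adaptation and end of fermentation, with the first 4 phases not separated from their neighbours (limma adjusted p = 0.741, 0.483 and 0.364).

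The 2 paralogs moved far less than FBA1-2 and TAL1-2 and largely with each other. FBA1-1, the glycolytic aldolase copy, had relative signals of 13.6, 11.4 and 11.8 in logarithmic growth and 13.9, 14.8 and 13.8 at the end of glycerol feeding. It had 10.3, 10.8 and 6.47 at methanol adaptation, 12.2, 11.8 and 8.49 on the labelled-peak arrays, and 8.80, 8.84 and 9.23 at the end of fermentation. The FBA1-1 value of labelled-peak array 2 rests on 1 of 3 spots, since the others were outlier-flagged and left out. TAL1-1, the transaldolase copy of the pentose phosphate pathway, had 7.06, 6.49 and 6.45 in logarithmic growth, 8.74, 9.11 and 8.79 at the end of glycerol feeding, 6.68, 6.61 and 4.42 at methanol adaptation, 7.54, 6.89 and 4.87 on the labelled-peak arrays, and 5.64, 5.39 and 5.82 at the end of fermentation. By scan-adjusted means both were highest at the end of glycerol feeding and lowest at the end of fermentation. Array 3 was the lowest of its phase for both paralogs at methanol adaptation and on the labelled-peak arrays.

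At methanol adaptation FBA1-1 was 1.58-fold (log2 -0.66 ± 0.17, SE; limma adjusted p = 0.00686) and TAL1-1 1.53-fold (log2 -0.61 ± 0.16, SE; limma adjusted p = 0.00623) below the end of glycerol feeding. Neither call held with quantile normalization, where the log2 changes were 0.087 (adjusted p = 0.262) and -0.15 (adjusted p = 0.14), nor in the authors' processed values, at 0.060 (adjusted p = 0.472) and -0.13 (adjusted p = 0.15) with a scan block. The upper end of the signal distribution moved in the same direction: the 99th percentile of spots was 2.50 on methanol adaptation array 3, against 3.18 on array 2, and lay between 3.32 and 3.59 at the end of glycerol feeding, on the log2 relative scale. The part of this shift in the 2 changes was not tested beyond quantile normalization. Against logarithmic growth, methanol-adapted cells had a log2 change of -0.45 ± 0.19 (SE) for FBA1-1 (limma adjusted p = 0.0547) and of -0.19 ± 0.18 (SE) for TAL1-1 (limma adjusted p = 0.357). The first was called with fermentor and scan both as blocks (adjusted p = 0.019) and with all arrays separate (adjusted p = 0.0265). TAL1-1 was 1.34-fold higher at the end of glycerol feeding than in logarithmic growth (limma adjusted p = 0.0538), and this was called with fermentor and scan as blocks (adjusted p = 0.0224) and with all arrays separate (adjusted p = 0.0269). None of the neighbours in the order of either paralog (end of glycerol feeding, logarithmic growth, labelled peak, methanol adaptation, end of fermentation) passed the threshold in the fit with scan as a block.

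The direct test of cycle gene against paralog was made on the ratio of both signals within each array, as a change between phases, since the level of a ratio depends on how 2 probes respond. The ratio of FBA1-2 to FBA1-1 was 7.50-fold higher at methanol adaptation than in logarithmic growth (log2 2.91 ± 0.26, SE; limma adjusted p = 1.64e-06). It rose both at the end of glycerol feeding (2.49-fold, limma adjusted p = 0.001) and from there to methanol adaptation (3.01-fold, limma adjusted p = 0.000163). The end of fermentation stood 3.91-fold above methanol adaptation (limma adjusted p = 4.49e-05). For TAL1-2 over TAL1-1 the ratio was 4.74-fold higher at methanol adaptation than in logarithmic growth (log2 2.24 ± 0.11, SE; limma adjusted p = 1.43e-08), and 4.47-fold higher already at the end of glycerol feeding (limma adjusted p = 4.51e-08).

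Between the end of glycerol feeding and methanol adaptation the transaldolase ratio had a log2 change of 0.084 ± 0.099 (SE), with a 95% interval of 0.911-fold to 1.23-fold (limma adjusted p = 0.477). Its sign turned with quantile normalization (-0.39, adjusted p = 0.0136) and in the authors' values (-0.41, adjusted p = 0.0187 with a scan block), so this step has no settled direction. At the end of fermentation the transaldolase ratio was 4.06-fold above methanol adaptation (limma adjusted p = 3.96e-08; log2 1.19, adjusted p = 0.0644, with no scan block; log2 2.04 on scan 1 alone). Per array and relative to logarithmic growth on the same scan, the aldolase ratio stood at 2.71, 2.34 and 2.44 at the end of glycerol feeding, 7.24, 5.34 and 10.9 at methanol adaptation, 1.34, 1.09 and 1.81 on the labelled-peak arrays and 31.1, 29.5 and 27.7 at the end of fermentation. The transaldolase ratio stood at 4.77, 4.31 and 4.51, then 4.49, 4.78 and 5.14, then 1.11, 1.33 and 1.57, and finally 18.6, 18.7 and 18.3 in the same phases. The aldolase ratio of 1.09, on labelled-peak array 2, rests on 1 spot of FBA1-1. Both ratios were highest at the end of fermentation on every array, with no overlap with another phase. The tags of TAL1-1 and TAL1-2 carry consecutive numbers. Probe sequences were not used here, so binding of a probe to the other copy was not tested.

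**Figure D3:**
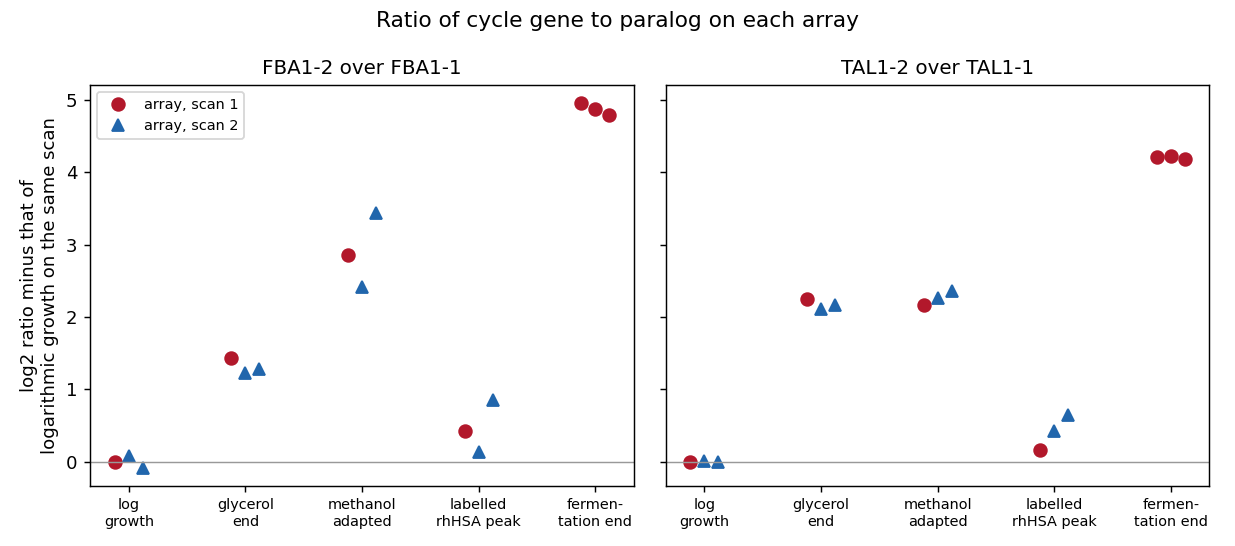
Log2 ratio of the cycle gene to its paralog on each array, minus the mean ratio of logarithmic growth on the same scan, against the 5 phases (circles scan 1, triangles scan 2). The aldolase ratio rises in both steps to methanol, the transaldolase ratio lies between 2.11 and 2.36 in both the starved and the methanol-adapted cells, and both are above 4 at the end of fermentation.

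Calls were frequent over the whole array, so the count of the 6 genes called carries little by itself. Between methanol adaptation and logarithmic growth 75.3% of tags were called, 32.9% higher and 42.4% lower. Of the 4 cycle genes, FBA1-2 and TAL1-2 were higher (log2 2.46 and 2.06), and SHB17 (0.046) and FBP1 (-0.33) were not called. The median of the 4 genes, 1.05 beside -0.12 over all tags, thus falls between the pair that rose and the pair not called. Neither paralog was called (median -0.32). For the end of glycerol feeding against logarithmic growth, with 67.0% of tags called (33.2% higher, 33.8% lower), FBA1-2 and TAL1-2 were the members called, both higher. Methanol adaptation against the end of glycerol feeding gave 61.9% of tags called (22.4% higher, 39.4% lower), with FBA1-2 higher and TAL1-2 and both paralogs lower. The labelled peak against methanol adaptation gave 73.6% (39.9% higher, 33.6% lower), with SHB17 higher and FBA1-2 and TAL1-2 lower. The end of fermentation against methanol adaptation gave 71.4% (33.3% higher, 38.1% lower), with FBA1-2, TAL1-2 and SHB17 higher and FBP1 lower. Against the labelled peak it gave 76.0% (30.5% higher, 45.5% lower), with these 4 genes called in those directions. The FBP1 call against the labelled peak (log2 -0.61, limma adjusted p = 0.00652) had n = 2 on the labelled-peak arrays. It was lost with no scan block (log2 -0.13, adjusted p = 0.829) and without labelled-peak array 1 (log2 -0.37).

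Phases that do not follow each other were compared in the same way. For the labelled peak against logarithmic growth 50.6% of tags were called (23.6% higher, 27.0% lower), and FBA1-2, TAL1-2 and SHB17 (log2 0.42, limma adjusted p = 0.0239) were called higher. The SHB17 call was lost in 8 of 29 alternatives, with no scan block (adjusted p = 0.352), fermentor in place of scan (0.077), normexp background (0.081), scan 2 alone (0.34), near-identical arrays averaged (0.0746), and without logarithmic growth array 1 (0.106), labelled-peak array 1 (0.0727) or labelled-peak array 2 (0.0636). In this comparison 2542 tags were called, but 766 with no scan block and 455 on scan 2 alone. Against the end of glycerol feeding the labelled peak gave 67.4% (31.7% higher, 35.6% lower), with FBA1-2 2.38-fold, TAL1-2 4.79-fold and TAL1-1 1.4-fold lower. The TAL1-1 call (limma adjusted p = 0.0178) was lost with no scan block (adjusted p = 0.059), on scan 2 alone (0.103), with near-identical arrays averaged (0.105), and without glycerol-end array 2 (0.0642) or 3 (0.0553) or labelled-peak array 3 (0.071). FBA1-1 was 1.32-fold lower there and not called (limma adjusted p = 0.0582), but it was called in 9 of 29 alternatives. SHB17 (log2 0.25, limma adjusted p = 0.091) was not called either, and was called higher in 5 of 29 alternatives. For the end of fermentation against the end of glycerol feeding 73.7% of tags were called (28.8% higher, 44.9% lower), with FBA1-2, TAL1-2 and SHB17 higher and FBP1 and both paralogs lower. The FBA1-1 change there (log2 -0.79) was 0.021 with quantile normalization, and with near-identical arrays averaged neither paralog was called (adjusted p = 0.0731 for FBA1-1 and 0.0544 for TAL1-1). FBP1 changed by -0.73 log2 units with the scan block and by -0.089 with no scan block (adjusted p = 0.873) or with fermentor in place of scan (adjusted p = 0.741). SHB17 changed by 0.78 with the scan block and by 0.31 in those settings (adjusted p = 0.412 and 0.121). Against logarithmic growth the end of fermentation gave 71.2% (26.7% higher, 44.5% lower), with the first 3 cycle genes higher and FBP1 (1.73-fold) and FBA1-1 (1.5-fold, limma adjusted p = 0.0247, called in 19 of 29 alternatives) lower. FBP1 there had -0.79 log2 units, against -0.31 with no scan block (adjusted p = 0.611) and -0.14 with fermentor in place of scan (adjusted p = 0.587), and SHB17 had 0.95, against 0.60 with no scan block (adjusted p = 0.173). By size, the change of FBA1-2 (19.6-fold, limma adjusted p = 1.67e-10) was the rank 3 increase of 5024 tags in this last comparison, and that of TAL1-2 (14.9-fold, limma adjusted p = 1.22e-09) the rank 7 increase.

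**Figure D4:**
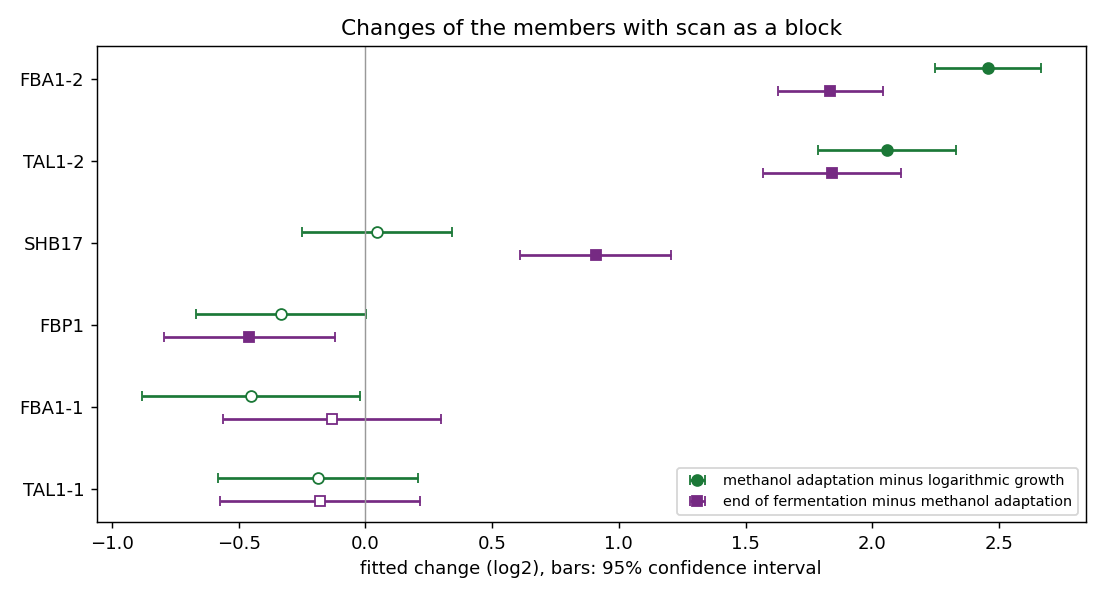
Fitted log2 changes with scan as a block, with 95% confidence intervals as bars, for methanol adaptation minus logarithmic growth (green circles) and end of fermentation minus methanol adaptation (purple squares). Filled points passed the threshold of 0.05 on the limma adjusted p over 5024 tags. FBA1-2 and TAL1-2 rose in both, SHB17 in the second, and FBP1 fell in the second.

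Likeness of profiles over the 14 samples (13 for FBP1), after the scan difference was removed, is given as a description, since all samples share 2 scans and 3 fermentors. FBA1-2 and TAL1-2 followed each other at r = 0.928. SHB17 had r = 0.610 with FBA1-2 and 0.582 with TAL1-2, where it was the rank 700 and rank 741 match, and it was higher on the labelled-peak arrays than at methanol adaptation while both of them were lower. FBA1-1 and TAL1-1 followed each other at r = 0.960, where TAL1-1 was the rank 8 match of FBA1-1 among 3991 tags. FBP1 had r = 0.853 with FBA1-1 and 0.792 with TAL1-1, its rank 155 and rank 357 matches. With FBA1-2 and TAL1-2 its r was -0.852 and -0.656. These r of FBP1 rest on removing its fitted scan difference of 1.95-fold, and r with that difference left in was not computed. Other tags followed the members more closely. The tag with the highest r was PAS_chr1-3_0225 for FBA1-2 (0.994), PAS_chr3_0099 for TAL1-2 (0.995), PAS_chr3_0934 for SHB17 (0.964), PAS_chr2-2_0355 for FBP1 (0.973), PAS_chr3_1157 for FBA1-1 (0.983) and PAS_chr2-2_0392 for TAL1-1 (0.986). TAL1-2 was the rank 82 match of FBA1-2, and FBA1-2 the rank 67 match of TAL1-2.

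None of the 270 spots of the 6 genes was saturated. The brightest, of FBA1-1 in logarithmic growth, reached 61.1% of the scanner's limit, FBP1 reached 55.7%, and FBA1-2 at its highest, in the end of fermentation, reached 29.8%.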

How the data were processed

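Spot intensity on a linear scale was deposited by the authors, per the file headers background-subtracted within each array by Agilent Feature Extraction 10.7.3.1 (the submitters' processing notes name version 9.1), with no normalization between arrays recorded. The authors' deposited table of log2 values covers 3915 tags and 5 of the 6 genes (not FBP1). Its normalization and centring are not given in the sources used here.

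From the scanner files, log2 processed signal minus each array's 75th percentile was averaged over the 3 spots of a tag, without spots flagged as outliers. A tag was tested (5024 were) where, in 1 phase or more, each array had at least 2 of its 3 spots well above background. Phase means with scan as a block were fitted to all tags (limma 3.58.1, R 4.3.3, jsonlite 2.0.0) and adjusted by Benjamini-Hochberg, threshold 0.05. The 2 within-array ratios were added as rows and adjusted with all tags. Figures used Python 3.11.15 and matplotlib 3.10.9. The fit with scan as a block was tested on simulated data, with noise independent between arrays and all arrays entered separately. That simulation did not check p-values for arrays that resemble each other, nor the averaging of arrays. The members, lists and tests were chosen with earlier results of these data known. The genes named are the 6 members and, for each, the tag most like it. A list of 12 other pathway tags was not analysed here, since the reference table (assembly ASM170810v1, 5305 rows) held 0 of the 5039 tags, so no names, sequences or coordinates are given. The normexp alternative used median spot signals, the column at hand.

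Arrays numbered alike come from 1 fermentor, per the labels, so the numbers pair the samples. Their deviations from phase means, with the scan difference left in, correlated at r from 0.408 to 0.954 over the first 4 phases. There fermentor 1 is also scan 1, and fermentors 2 and 3 are scan 2, so these r cannot tell fermentor from scan. With the end of fermentation, all on scan 1, r ran from -0.314 to 0.257. Whether RNA was extracted separately is not stated, so p-values measure the spread between these arrays.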

Additional observations from a re-analysis of the deposited data

How the results depend on the processing

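FBA1-2 and TAL1-2 kept direction and call in every tested alternative at the end of glycerol feeding and at methanol adaptation against logarithmic growth (30 of 30 each), at the labelled peak against methanol adaptation (29 of 29) and at the end of fermentation against methanol adaptation (29 of 29) and against the labelled peak (28 of 28). The cause of the changes below was not tested. All values are log2 changes.

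At the end of glycerol feeding against logarithmic growth, TAL1-1 became called with scan as a random block (0.43), with the replicate block of fermentor, with or without scan, and with all arrays separate (0.41 each), with quantile normalization (0.25), in the authors' values without and with a scan block (0.22 each) and without the labelled-peak arrays (0.42), and ranged from 0.38 to 0.55 as single arrays were left out. SHB17 became called in the authors' values without a block (0.16). The aldolase ratio lost its call on scan 2 alone (1.26).

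At methanol adaptation against the end of glycerol feeding, TAL1-2 lost its call with no scan block and with the replicate block without scan (-0.53 each) and on scan 2 alone (-0.56). FBP1 became called with outlier spots kept (-0.35; -0.41 to -0.15 without single arrays). FBA1-1 turned sign with quantile normalization (0.087) and in the authors' values with either block setting (0.060), and lost its call on scan 2 alone (-0.77) and with all near-identical arrays averaged (-0.62). TAL1-1 lost its call in the same settings (-0.15, -0.13, -0.73 and -0.57), with -0.39 on scan 1 alone. The transaldolase ratio turned sign and was called with quantile normalization (-0.39) and in the authors' values (-0.41); on scan 1 alone, with no test, it was -0.087, beside -2.01 for the labelled peak against methanol adaptation and 4.06 for the end of fermentation against the labelled peak.

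For the labelled peak against methanol adaptation, SHB17 lost its call with no scan block and with the replicate block without scan (0.37 each), with normexp background (0.29) and on scan 2 alone (0.38), and ranged from 0.25 to 0.49 without single arrays. FBA1-1 ranged from 0.035 to 0.43 and became called without methanol adaptation array 2 (0.43). For the end of fermentation against the labelled peak, SHB17 lost its call with no scan block and with the replicate block without scan (0.067 each) and with near-identical arrays averaged (0.53). FBP1 lost it with no scan block (-0.13), with the replicate block without scan (-0.035) and with near-identical arrays averaged (-0.62). It also lost it without labelled-peak array 1 (-0.37), and ranged from -0.77 to -0.37 without single arrays. FBA1-1 ranged from -0.49 to -0.30 and became called without methanol adaptation array 2 (-0.43) or 3 (-0.33) or labelled-peak array 3 (-0.49). TAL1-1 ranged from -0.43 to -0.18 and became called without labelled-peak array 3 (-0.43).

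At methanol adaptation against logarithmic growth, SHB17 became called with quantile normalization (0.20) and in the authors' values (0.19). FBP1 became called with the replicate block with scan and with all arrays separate (-0.33 each), with outlier spots kept (-0.41) and without the labelled-peak arrays (-0.35; -0.46 to -0.22 without single arrays). FBA1-1 became called with scan as a random block (-0.45), with either replicate block and with all arrays separate (-0.44 each) and without the labelled-peak arrays (-0.46; -0.62 to -0.25 without single arrays). For the end of fermentation against methanol adaptation, SHB17 (0.44) and the transaldolase ratio (1.19) lost their call with no scan block. FBP1 turned sign with no scan block and with the replicate block without scan (0.19 each) and lost its call with the replicate block with scan (-0.44) and with near-identical arrays averaged (-0.47; -0.55 to -0.36 without single arrays). FBA1-1 at the end of fermentation against the end of glycerol feeding turned sign with quantile normalization (0.021) and in the authors' values (0.049 without and 0.053 with a scan block).

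Without a scan block fewer tags were called: 1855 in place of 3364 at the end of glycerol feeding against logarithmic growth, 1320 in place of 3108 at methanol adaptation against the end of glycerol feeding, 2357 in place of 3696 for the labelled peak against methanol adaptation and 2417 in place of 3782 at methanol adaptation against logarithmic growth. On scan 2 alone the first 2 of these were 1922 and 1537. For the labelled peak 766 in place of 2542 were called against logarithmic growth (455 on scan 2 alone) and 1829 in place of 3384 against the end of glycerol feeding (2120 on scan 2 alone), and for the end of fermentation 2343 in place of 3578 against logarithmic growth. Of the calls at methanol adaptation against the end of glycerol feeding 36.3% were higher, 48.5% with quantile normalization and 49.6% in the authors' values. At the end of fermentation against the labelled peak 40.1% were higher, 50.2% in the authors' values without a block and 50.4% with one. The median change of all tags in these comparisons was -0.12 and -0.21. The end of fermentation had arrays on scan 1 only, so its comparisons rest on the scan difference estimated from the other 4 phases. The signal of all 6 genes was well above background.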
